A study of Homo sapiens with 4 samples.

Results

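The genes described here are the chaperones, endoplasmic reticulum (ER) stress genes, proteasome subunits and autophagy genes of an immune-response panel that was counted by NanoString in HAP1 cells with and without MATR3. They were chosen by gene symbol alone, as all panel genes whose symbols begin like the heat shock proteins (HSP), DNAJ co-chaperones, SSR and SEC translocon genes, XBP1, the numbered ATF genes, ERN1, the EIF2A kinases, proteasome subunits (PSM), ATG, ULK, BECN1, SQSTM1, GABARAP or MAP1LC3. PSMB8, PSMB9 and EIF2AK2 were left out by the rule. The rule gave 23 of the 785 genes. The rule itself uses no measured value, but it was chosen with earlier results of these data known.

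HAP1 is an established, near-haploid human cell line. The 4 samples were total RNA from 2 wild-type lines, numbered 1 and 7, and from 2 MATR3 knockout lines, numbered 1 and 5, with no treatment named and all bought from a supplier. Each knockout line is a single clone, and the wild-type numbers are clone or batch numbers of the supplier, which the labels do not settle, so a difference between genotypes may also be one between clones. The lines are called wild type 1, wild type 7, knockout 1 and knockout 5 here. MATR3 encodes matrin 3, an RNA-binding protein of the nuclear matrix. MATR3 itself was not analysed here, so its level does not check the labels. The labels name no separate cultures and no assay date, so a batch and the genotype cannot be told apart. The limma p-values and intervals rest on the spread between these samples and on a variance trend over all tested genes. Each gene's own variance was drawn towards that trend.

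Proteins are folded by chaperones, and damaged proteins are broken down by the proteasome or, with whole organelles, by autophagy. In the cytosol the HSP90 chaperones work with HSP70 and its DNAJ co-chaperones. In the ER, 3 sensors (IRE1, encoded by ERN1, PERK, encoded by EIF2AK3, and ATF6) respond to unfolded proteins, and act through the transcription factors XBP1, ATF4 and ATF6 itself. Autophagy is started by the ULK1 and BECN1 complexes and proceeds through conjugation of ATG12 and of LC3-type proteins to make the autophagosome membrane. Much of this control is by splicing, cleavage and phosphorylation. The panel gave 1 transcript value per gene, so spliced and unspliced XBP1 were not told apart.

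Values are normalised counts, in which each line's probe counts were multiplied by 1 factor. Total gene counts lay between 448610 and 571767. The test took in genes whose mean over the lines was at least 20, which left 514 panel genes and 21 of the 23 members. A gene was called when its limma p, adjusted by Benjamini-Hochberg over all 514 genes, was under 0.05. Of 18 leukocyte marker genes on the panel, 2 to 6 exceeded the background limit set from a line's negative controls, and none exceeded 45.4 normalised counts. The leukocyte marker PTPRC lay between 6.68 and 9.39 normalised counts, below the limit in all 4 lines. The summed level of the 18 markers was 273 in wild type 1, 354 in wild type 7, 264 in knockout 1 and 204 in knockout 5.

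The cytosolic chaperones were higher in both knockout lines, and 2 of the 3 passed the test: DNAJA2 rose 1.27-fold and HSP90AA1 1.17-fold. Of the 21 tested members 2 (9.52%) were called, against 8.17% of all tested genes, so the share among the members lay near the background. Both were called higher, against 6.23% of all tested genes, and no member was called lower, against 1.95%. The median log2 change was 0.03 over the 21 members and -0.04 over all 514 genes, with 13 members higher and 8 lower. The medians were equal, at 0.03, over genes with a mean of 50 or more, and with cyclic loess the members lay below all genes, at -0.031 against -0.014. The members' log2 changes ran from -0.48, for PSMB10, to 0.35, for DNAJA2. Over all tested genes the range was -2.34 to 3.03. The genotypes did not overlap in 12 of the 21 members, 6 of them higher and 6 lower in the knockout, against 53.1% of all tested genes. An unadjusted p under 0.05 was reached by 4 members, DNAJA2, HSP90AA1, ATF4 and XBP1, against 19.8% of all tested genes.

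**Figure D1:**
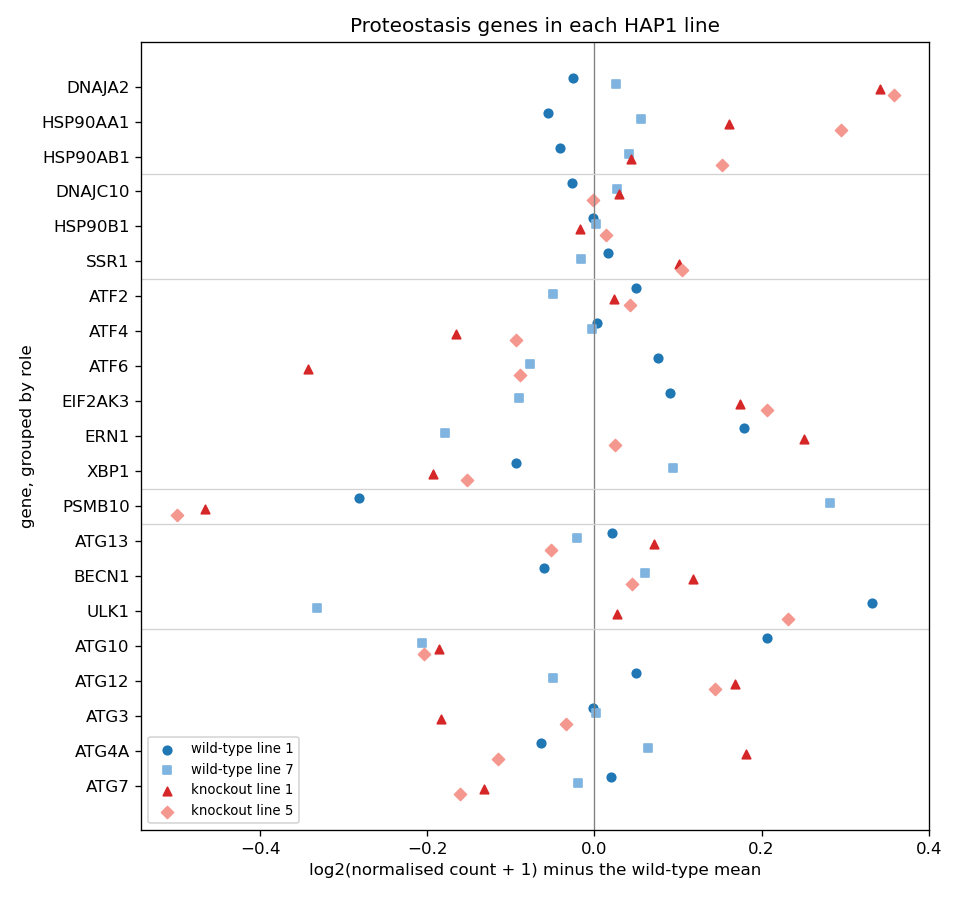
Each tested gene is a line of 4 points, placed on the x axis at log2(normalised count + 1) minus the mean of the wild-type lines, with blue for wild type and red for knockout and grey lines between roles. The red points of DNAJA2 and HSP90AA1 lie to the right of both blue points, while for ULK1 the 2 wild-type lines enclose both knockout lines.

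DNAJA2 is a DNAJ co-chaperone that delivers unfolded proteins to cytosolic HSP70. It was at 1322 normalised counts in wild type 1, 1369 in wild type 7, 1705 in knockout 1 and 1724 in knockout 5. The knockout lines were both higher, the lines of each genotype were close together, and the groups did not overlap. The mean went from 1345 ± 33.3 to 1715 ± 13.8 (SD, n = 2), a log2 change of 0.35 ± 0.07 (SE; limma adjusted p = 0.0128; 95% interval 0.19 to 0.51). The direction held in all 16 alternative settings, with a log2 change of 0.30 to 0.43, and the call in 12 of them. It was lost narrowly without knockout 5 (adjusted p = 0.0568), with scaling on the positive control probes (0.057) and with scaling on 12 reference genes (0.061), and more clearly under limma without the variance trend (0.234).

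HSP90AA1 encodes HSP90 alpha, the stress-inducible cytosolic form of HSP90, which matures kinases and steroid receptors. Its values were 45078 normalised counts in wild type 1, 48695 in wild type 7, 52395 in knockout 1 and 57483 in knockout 5. Both knockout lines were higher than both wild-type lines, with knockout 5 highest. The mean went from 46887 ± 2558 to 54939 ± 3597 (SD, n = 2), a log2 change of 0.23 ± 0.06 (SE; limma adjusted p = 0.0411; 95% interval 0.09 to 0.36). The call rested on knockout 5, without which the change was 0.16 and did not pass (adjusted p = 0.274). The call was also lost with scaling on the positive control probes (adjusted p = 0.297), with edgeR and TMM factors (0.0904) and under limma without the trend (0.399), and the range over all 16 alternatives was 1.34e-05 to 0.399.

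HSP90AB1 encodes HSP90 beta, the constitutive partner form. It was at 32558 normalised counts in wild type 1, 34500 in wild type 7, 34543 in knockout 1 and 37241 in knockout 5. Knockout 1 stood barely above wild type 7. The log2 change of 0.10 ± 0.06 (SE; 95% interval -0.03 to 0.22) did not pass (limma adjusted p = 0.377). It passed in 1 of the 16 alternatives, scaling on the reference genes without TBP, where it was 0.18 (adjusted p = 0.0231). It was 0.044 without knockout 5 (adjusted p = 0.865) and 0.056 without wild type 1.

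The scaling of a sample cancels in the ratio of 2 genes counted in it. The ratio of HSP90AA1 to HSP90AB1 was 1.38 in wild type 1, 1.41 in wild type 7, 1.52 in knockout 1 and 1.54 in knockout 5. The alpha form was thus higher relative to the beta form in both knockout lines, by 0.13 on the log2 scale. An exact two-sided permutation test gave p = 0.333, the smallest that 2 samples against 2 allow. The sequences of the probes are not given in the sources used here, so whether the probes of these close paralogs bind each other's transcripts was not tested. Set against each of the 20 other tested members in turn, DNAJA2 had higher ratios in both knockout lines for 18, with overlap only against ERN1 and ULK1. For HSP90AA1 this held for 13 of 20 ratios, 6 overlapped, and the ratio to DNAJA2 was lower in both knockout lines. These 2 genes were taken for the ratios because they were called on the same values. Their higher ratios follow in part from that choice and are no separate support. The share of such ratios over all tested genes was not computed.

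**Figure D2:**
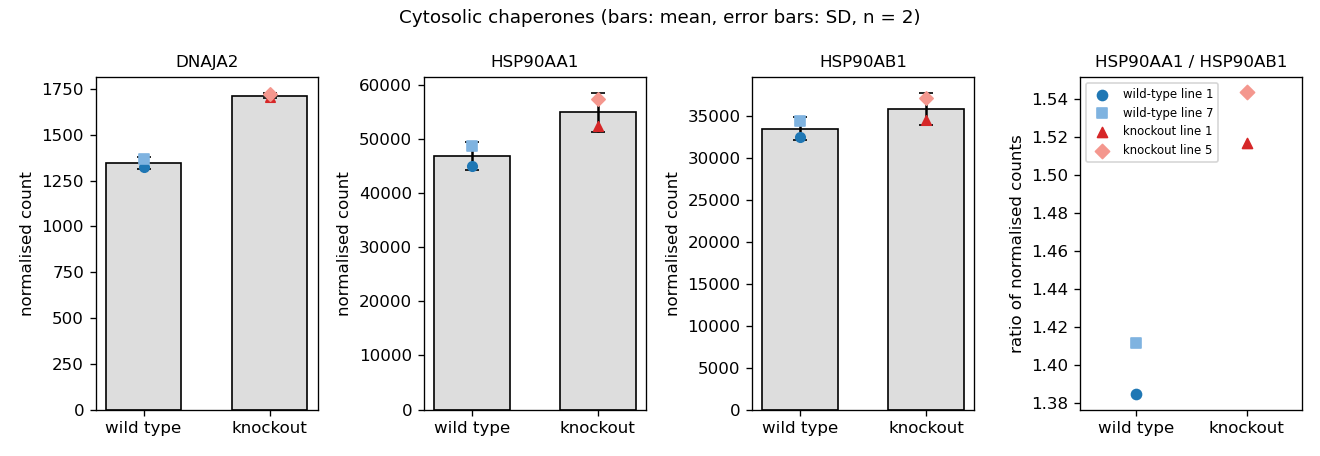
The first 3 panels show normalised counts of DNAJA2, HSP90AA1 and HSP90AB1 in wild type and knockout (bars, mean from a zero baseline; error bars, SD, n = 2; points, lines), and the last panel shows the ratio of HSP90AA1 to HSP90AB1 on an axis that does not start at 0. DNAJA2 separates the genotypes most clearly, and the ratio is 1.52 and 1.54 in the knockout lines against 1.38 and 1.41 in the wild-type lines.

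Promoters are shown for the 3 cytosolic chaperones, since they differ in the test but 2 of them carry the binding motif of the heat shock factors, and for HSP90B1 and XBP1, the 2 members with an ER stress motif. Promoters of 21 of the 23 members were found in the RefSeq table (GRCh38.p14), which held 26 starts for them, each with 250 bases before and 50 after the start. The heat shock element was searched on both strands as 3 alternating half-sites, GAA and TTC, with any 2 bases between neighbours and with either half-site first. It was found before 2 of the 26 starts, 1 of HSP90AA1 and 1 of HSP90AB1, against 0.49% of all 35116 promoters in the table. The ER stress response element, bound by ATF6, was searched on both strands as CCAAT, any 9 bases and CCACG, and was found before 1 start each of HSP90B1 and XBP1, against 0.0769% of all promoters. The stretches run 5′ to 3′ over the 200 bases before the start, and capitals mark the motif.
DNAJA2, chr16:46973675-46973874, minus strand: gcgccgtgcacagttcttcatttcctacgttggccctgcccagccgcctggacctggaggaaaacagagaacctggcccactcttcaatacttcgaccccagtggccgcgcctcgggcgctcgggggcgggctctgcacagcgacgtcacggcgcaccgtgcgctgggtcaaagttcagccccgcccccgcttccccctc
HSP90AA1, chr14:102087045-102087244, minus strand: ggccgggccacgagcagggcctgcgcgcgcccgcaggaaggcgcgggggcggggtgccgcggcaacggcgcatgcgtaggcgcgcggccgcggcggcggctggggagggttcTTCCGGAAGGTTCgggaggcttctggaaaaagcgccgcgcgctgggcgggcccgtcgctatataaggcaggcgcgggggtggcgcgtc
HSP90AB1, chr6:44247743-44247942, plus strand: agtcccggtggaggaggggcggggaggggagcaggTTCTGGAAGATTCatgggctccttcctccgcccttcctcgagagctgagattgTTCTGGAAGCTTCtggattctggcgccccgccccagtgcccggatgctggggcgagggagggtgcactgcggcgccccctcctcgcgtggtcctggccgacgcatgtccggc
HSP90B1, chr12:103930210-103930409, plus strand: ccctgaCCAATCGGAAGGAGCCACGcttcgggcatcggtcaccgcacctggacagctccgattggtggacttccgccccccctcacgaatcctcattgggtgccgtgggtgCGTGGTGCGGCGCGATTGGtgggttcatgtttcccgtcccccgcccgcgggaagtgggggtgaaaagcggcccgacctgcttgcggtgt
XBP1, chr22:28800570-28800769, minus strand: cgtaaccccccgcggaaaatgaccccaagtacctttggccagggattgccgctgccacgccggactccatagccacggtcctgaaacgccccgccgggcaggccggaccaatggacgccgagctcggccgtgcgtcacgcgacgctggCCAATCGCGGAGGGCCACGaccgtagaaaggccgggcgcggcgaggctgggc
Counted from the start, the heat shock element of HSP90AA1 lay at -88 to -76, and those of HSP90AB1 at -165 to -153 and at -112 to -100, before the farthest downstream of the 3 starts listed for that gene. In HSP90B1 the ER stress response elements lay at -194 to -176 and at -89 to -71, the second on the other strand, and in XBP1 at -52 to -34. DNAJA2, with the largest rise among the members, had neither motif in its window. A match is only a run of letters and does not show that a factor binds there. Of the 2 genes with a heat shock element 1 was called, and neither gene with an ER stress response element was. Over all tested genes 8.17% were called, and counts over 2 genes cannot be told apart from that share.

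The ER chaperones and translocon genes showed no call with limma (0 of 3), with none at an unadjusted p under 0.05 and 0 with edgeR under either set of factors. Over all tested genes 8.17% were called and 19.8% had a limma unadjusted p under 0.05, so 0 of 3 is near the background. HSP90B1 encodes GRP94, the HSP90 form of the ER lumen and a classical target of the unfolded protein response. It was at 12518 normalised counts in wild type 1, 12542 in wild type 7, 12383 in knockout 1 and 12646 in knockout 5. The knockout values enclosed the wild-type values, and the log2 change was -0.0019 ± 0.05 (SE; limma adjusted p = 0.988). Its 95% interval of -0.12 to 0.12, a fold of 0.92 to 1.08, holds under the deposited scaling and does not exclude a larger change. Over the 16 alternatives the log2 change itself ran from -0.042 to 0.081.

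SSR1, a subunit of the translocon-associated protein complex, was at 2403 normalised counts in wild type 1, 2350 in wild type 7, 2549 in knockout 1 and 2555 in knockout 5. Both knockout values were higher, but the log2 change of 0.10 ± 0.07 (SE) did not pass (limma adjusted p = 0.426; 95% interval -0.04 to 0.25). DNAJC10, an ER disulphide reductase also called ERdj5, was at 1035 in wild type 1, 1074 in wild type 7, 1076 in knockout 1 and 1053 in knockout 5. The groups overlapped and the log2 change was 0.01 ± 0.08 (SE; adjusted p = 0.941).

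Among the 6 stress sensors and transcription factors, ATF4, XBP1 and ATF6 were lower in both knockout lines. The others, ATF2, EIF2AK3 and ERN1, had log2 changes above 0, and none of the 6 was called. Over all tested genes, 158 of 514 were lower in both knockout lines and 8.17% were called. With limma 2 of the 6 had an unadjusted p under 0.05, against 19.8% of all tested genes, and edgeR called 0 with either set of factors. ATF4, the effector of the PERK branch and of the wider integrated stress response, was at 13834 normalised counts in wild type 1, 13781 in wild type 7, 12304 in knockout 1 and 12932 in knockout 5. The wild-type lines were nearly equal and the knockout lines lay below them. The log2 change was -0.13 ± 0.06 (SE; limma unadjusted p = 0.0377, adjusted p = 0.216).

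XBP1, the transcription factor that IRE1 activates by splicing, was at 2458 normalised counts in wild type 1, 2799 in wild type 7, 2293 in knockout 1 and 2360 in knockout 5. Both knockout lines were lower, although the wild-type lines differed from each other by more than wild type 1 did from either knockout line. Its log2 change was -0.17 ± 0.08 (SE; limma unadjusted p = 0.0469, adjusted p = 0.246). XBP1 depended on the wild-type lines: it passed without wild type 1, at -0.27 (adjusted p = 0.0431), and was at -0.079 without wild type 7 (0.811). It also passed with cyclic loess, at -0.22 (adjusted p = 0.018), and was at -0.090 with scaling on the reference genes without TBP (0.497). ATF4 also passed with cyclic loess, at -0.17 (adjusted p = 0.00884).

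ATF6, the membrane-bound sensor, was at 509 normalised counts in wild type 1, 458 in wild type 7, 381 in knockout 1 and 454 in knockout 5. Knockout line 5 was close to wild type 7, and the log2 change of -0.22 ± 0.12 (SE) did not pass (limma adjusted p = 0.331). The kinase sensors had values in the other direction without passing. EIF2AK3 was at 167 in wild type 1, 147 in wild type 7, 177 in knockout 1 and 181 in knockout 5, a log2 change of 0.19 ± 0.15 (SE; adjusted p = 0.471). ERN1 was at 147 in wild type 1, 115 in wild type 7, 155 in knockout 1 and 132 in knockout 5, so the groups overlapped (0.14 ± 0.18, SE; adjusted p = 0.653). ATF2, a stress-kinase target of the CREB family rather than an ER factor, lay between 815 and 873 in all 4 lines (log2 change 0.03 ± 0.09, SE; adjusted p = 0.85). DDIT3, the pro-apoptotic factor CHOP that ATF4 induces, which the rule did not include, had a log2 change of -0.08 ± 0.15 (SE; adjusted p = 0.757).

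**Figure D3:**
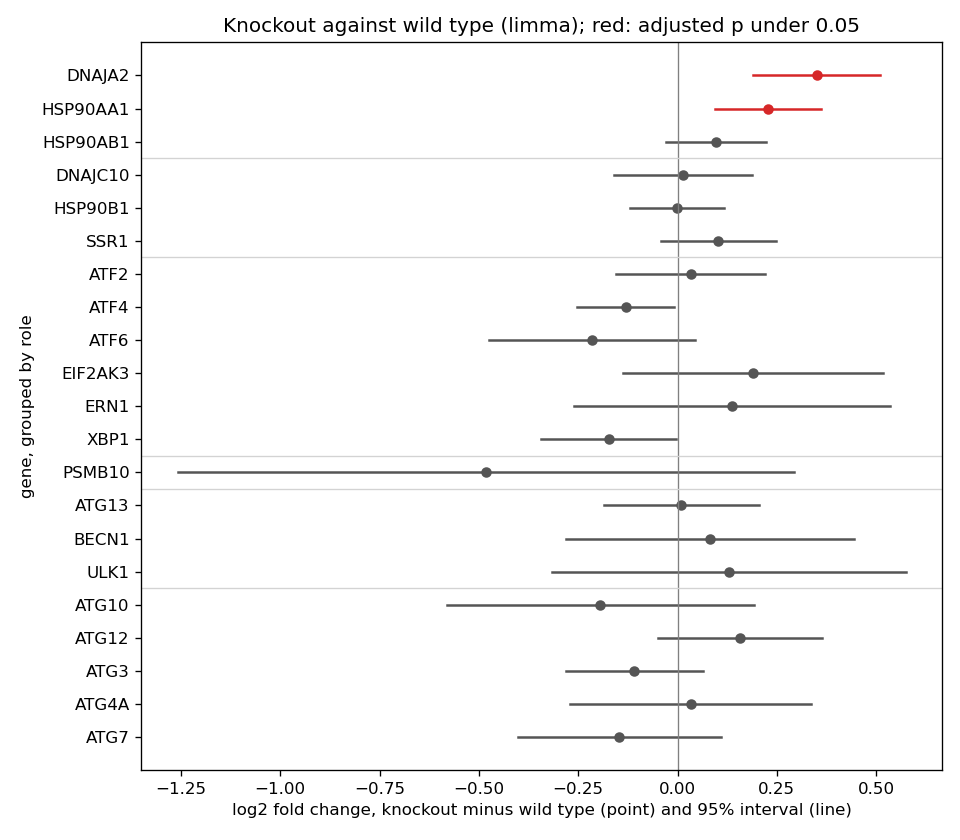
Each tested gene has its log2 change, knockout minus wild type (point), and its 95% interval from limma (line), with genes past an adjusted p of 0.05 in red and grey lines between roles. DNAJA2 at 0.35 and HSP90AA1 at 0.23 are the genes in red, and PSMB10 has the widest interval, -1.26 to 0.29.

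PSMB10 was the only proteasome subunit that the rule left in. It encodes a catalytic subunit of the immunoproteasome, the variant of the core particle that interferon induces, as PSMB8 and PSMB9 do. It was at 29.2 normalised counts in wild type 1, 43.6 in wild type 7, 25.6 in knockout 1 and 25.0 in knockout 5. These values come from 28, 51, 23 and 24 probe counts in the same order, all above but near the background limits of 19.5 to 25.7 normalised counts. Both knockout values were lower, by a log2 change of -0.48 ± 0.35 (SE) that did not pass (limma adjusted p = 0.46). The value rested on the wild-type lines, at -0.20 without wild type 7 and -0.76 without wild type 1, and was -0.14 with cyclic loess. PSMB8 and PSMB9 had log2 changes of 1.58 ± 0.19 (SE; adjusted p = 0.000274) and 0.84 ± 0.23 (SE; adjusted p = 0.0466). The 95% interval of PSMB10, -1.26 to 0.29, did not reach either of these estimates. The difference between the subunits was not itself tested. No gene of the constitutive proteasome core was among the members.

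The autophagy genes showed no call in either step of the pathway. With limma 0 of 3 tested initiation genes and 0 of 5 tested conjugation genes passed, 0 of the 8 had an unadjusted p under 0.05, and edgeR called 0 with either set of factors. Over all tested genes 8.17% were called and 19.8% had a limma unadjusted p under 0.05, so with only 8 genes 0 is near the background. ULK1, the kinase that starts autophagy, was at 224 normalised counts in wild type 1, 141 in wild type 7, 181 in knockout 1 and 209 in knockout 5. The wild-type lines thus enclosed the knockout lines, and the log2 change was 0.13 ± 0.20 (SE; limma adjusted p = 0.714). BECN1, the scaffold of the lipid kinase complex that nucleates the membrane, was at 118 in wild type 1, 128 in wild type 7, 134 in knockout 1 and 127 in knockout 5 (0.08 ± 0.16, SE; adjusted p = 0.804). ATG13, the adaptor subunit of the ULK1 complex, ranged from 739 to 805 over the 4 lines, with a log2 change of 0.01 ± 0.09 (SE; adjusted p = 0.96).

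Conjugation genes went both ways. ATG12, the ubiquitin-like protein that is joined to ATG5, was at 576 normalised counts in wild type 1, 537 in wild type 7, 625 in knockout 1 and 615 in knockout 5. Both knockout lines were higher, with a log2 change of 0.16 ± 0.09 (SE) that did not pass (limma adjusted p = 0.39). ATG3, the E2-like enzyme that attaches LC3 to lipid, was at 1617 in wild type 1, 1622 in wild type 7, 1425 in knockout 1 and 1582 in knockout 5. Both knockout lines were lower, knockout 1 clearly and knockout 5 slightly, at -0.11 ± 0.08 (SE; adjusted p = 0.46).

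ATG7, the E1-like enzyme of both conjugation systems, was also lower in both knockout lines, from 303 ± 5.73 to 273 ± 3.82 normalised counts (SD, n = 2), without passing (log2 change -0.15 ± 0.12, SE; limma adjusted p = 0.475). The groups overlapped for ATG10, the E2-like enzyme for ATG12 (136 to 182 over the 4 lines), and for ATG4A, a protease that processes LC3-type proteins (242 to 298). Of the 2 members below the filter, the kinase ULK2 was at 16.7 in wild type 1, 18.0 in wild type 7, 8.90 in knockout 1 and 9.37 in knockout 5. MAP1LC3A, a form of LC3, was at 15.7 in wild type 1, 17.1 in wild type 7, 10.0 in knockout 1 and 6.24 in knockout 5. All of these values lay below the background limits. With no filter on low values neither passed (limma adjusted p = 0.373 for ULK2 and 0.358 for MAP1LC3A), so no difference was detectable at this depth.

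Differences between lines of one genotype were set beside those between genotypes. The median absolute log2 difference over the 21 tested members came to 0.10 for wild type 7 against 1, to 0.04 for knockout 5 against 1 and to 0.13 for the genotype means. The last is a difference of means of 2 lines, which vary less than single lines, so it is not a like measure. The largest difference between lines was that of ULK1 in the wild type, at 0.66, and in the knockout that of ATG4A, at 0.30. Wild-type lines differed by more than 2 counting standard errors in 6 members, ATG10, ERN1, HSP90AA1, HSP90AB1, ULK1 and XBP1. In the knockout these were ATF4, ATF6, ATG3, ATG4A, HSP90AA1 and HSP90AB1. The share of such genes over all tested genes was not computed, so the members cannot be compared with the panel in this. The depth of HSP90AA1 makes counting error negligible there, at 0.0092 on the log2 scale between the wild-type lines, where the lines differed by 0.11.

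Outside the rule, 22 further genes of protein homeostasis were tested, from a list fixed with earlier results of these data known. Of these, 4 were called (18.2%, against 8.17% of all tested genes), all of them higher. With edgeR and TMM factors 2 were called. NFE2L2 encodes NRF2, the transcription factor of the oxidative and electrophile response, and rose to 1451 ± 105 normalised counts in the knockout, against 1033 ± 37.7 in the wild type (SD, n = 2), or by a log2 change of 0.49 ± 0.08 (SE; limma adjusted p = 0.00375). SOD2, the mitochondrial superoxide dismutase, rose by 0.81 ± 0.09 (SE; adjusted p = 0.000116). BNIP3, a mitophagy receptor, rose by 0.28 ± 0.07, and TBK1, a kinase that phosphorylates autophagy receptors as well as acting in innate sensing, by 0.41 ± 0.11 (SE; adjusted p = 0.0411 for both).

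NFE2L2 and SOD2 lost their calls only under limma without the trend (adjusted p = 0.186 and 0.095). The call of BNIP3 was lost in 7 of its 16 alternatives, among them those leaving out wild type 7 (adjusted p = 0.186), knockout 1 (0.0938) or knockout 5 (0.081), and that of TBK1 also in 7, among them those leaving out wild type 7 (0.132) or knockout 5 (0.222). Both calls were also lost with scaling on 12 reference genes (adjusted p = 0.147 for BNIP3 and 0.128 for TBK1), with positive control scaling (0.15 and 0.0884), under limma without the trend (0.3003 and 0.222) and with edgeR and TMM factors (0.0527 for both), and that of TBK1 without a filter (0.0524). The autophagy initiation genes PIK3C3 and RB1CC1, picked after the values were seen, were higher in both knockout lines without passing. Their log2 changes were 0.26 ± 0.10 (SE; limma adjusted p = 0.167) and 0.31 ± 0.10 (SE; adjusted p = 0.0879). Of the 22 genes 13 were higher and 2 lower in both knockout lines, against 115 and 158 of all 514 tested genes. PIK3R4 was at 0.13 ± 0.10 (SE), and WIPI1, near background, was lower in both, at -0.33 ± 0.41 (SE). The median log2 change over the 22 genes was 0.13, with 16 higher and 6 lower. Over all 514 tested genes the median was -0.04, with 218 higher and 296 lower. As the list was fixed with earlier results known, these values are a description only.

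**Figure D4:**
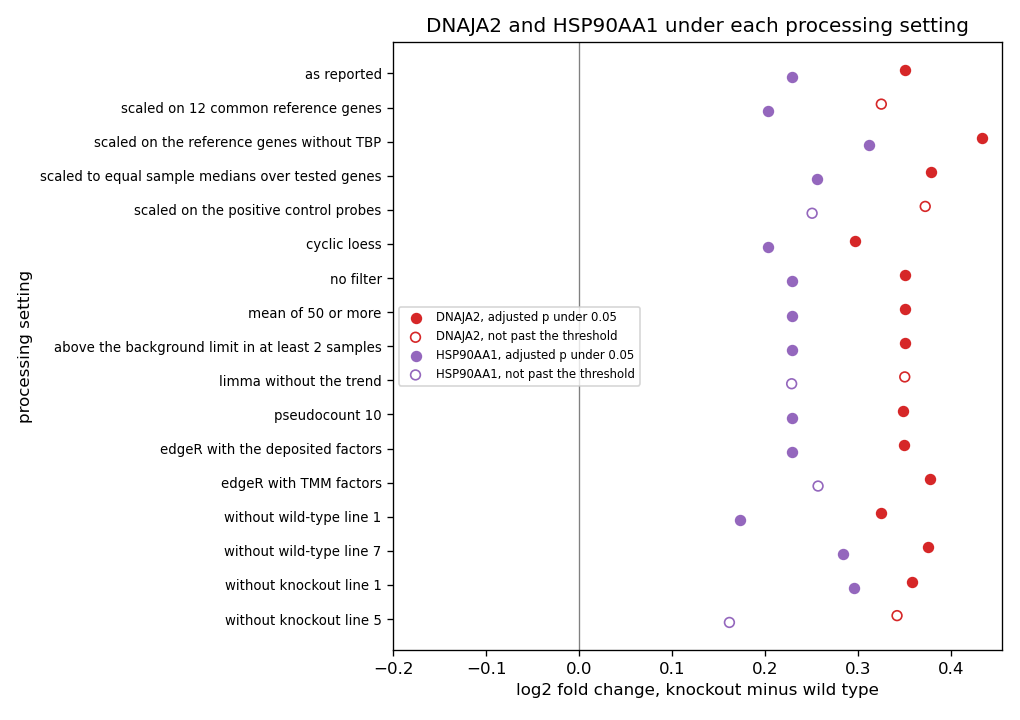
The log2 change, knockout minus wild type, of DNAJA2 (red) and HSP90AA1 (purple) is drawn for the reported setting and 16 alternatives, with filled points where the adjusted p was under 0.05 and open points elsewhere. All points lie to the right of 0, and each gene has 4 open points, 3 of them under the same settings: positive control scaling, no trend, and without knockout 5.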

How the data were processed

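RNA of 4 HAP1 lines was counted with a NanoString panel of 785 gene and 14 control probes. The deposited gene values are a normalised signal. Per the submitters' processing notes R 4.1.1 was used, and no normalisation method is given in the sources used here. Each sample's whole probe counts had been multiplied by 1 factor (0.856 to 1.11): 100.0% of the gene values above 2.5 were whole multiples within 0.006. In wild type 7, 4 values stood at exactly 1.00, a floor. The geometric mean of 10 reference genes, TBP among them, was equal in all samples (1671). Background limits were the mean plus 2 SD of the negative controls times the factor.

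Knockout was compared with wild type in limma 3.58.1 (R 4.3.3; lmFit, eBayes with trend) on log2(value + 1), which understates changes of low genes, for genes with a mean of at least 20 and without covariates. Alternatives included edgeR 4.0.16, run as a quasi-likelihood test on counts recovered from the factors. All p-values are two-sided. The script was tested on simulated data. Members, lists and tests were chosen with earlier results of these data known. Values in every sample were to be given for called members and the 2 members of each role with the smallest p, and are also given for most others. DDIT3, PIK3C3 and RB1CC1, of the fixed list, and the motifs were chosen after the values were seen. EIF2AK3 counts as a member only.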

Additional observations from a re-analysis of the deposited data

How the results depend on the processing

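No paired analysis was possible because 1 is the only line number common to both genotypes. The number of members called, 2, became 1 with 12 reference genes (HSP90AA1) and with edgeR and TMM factors (DNAJA2), 4 with cyclic loess, and 0 with positive control scaling or limma without the trend. Without single samples it ranged from 0, without knockout line 5, to 3. Of all panel genes 42 were called, against 69 with cyclic loess, 4 without the trend, and 29 to 77 without single samples. The 42 split into 32 higher and 10 lower. With 12 reference genes 25 of 39 were higher, with the reference genes without TBP 53 of 61, with cyclic loess 40 of 69, and without knockout 1 only 30 of 77, so that most called genes were then lower. The members' median of 0.03 was 0.008 with 12 reference genes, 0.12 without TBP, 0.061 with equal medians or edgeR with TMM, 0.055 with positive controls, -0.031 with cyclic loess, 0.014 without a filter, and -0.012 to 0.030 without single samples.

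None of the called members reversed, and 13 of 21 members kept their direction in every setting run for them (16, or 15 for PSMB10, which a mean of 50 leaves out). The others, none of them called, turned as follows. With cyclic loess ATF2 was at -0.031, ATG13 at -0.056, ATG4A at -0.011 and DNAJC10 at -0.046. With 12 reference genes ATG13 was at -0.015 and DNAJC10 at -0.011. HSP90B1 was at 0.081 without TBP, 0.026 with equal medians or edgeR with TMM, and 0.020 with positive controls. Without single samples ATF2 ranged from -0.016 to 0.082, ATG10 from -0.40 to 0.012, ATG13 from -0.052 to 0.071, ATG4A from -0.12 to 0.18, DNAJC10 from -0.013 to 0.041, ERN1 from -0.041 to 0.32, HSP90B1 from -0.017 to 0.013 and ULK1 from -0.20 to 0.46. The cause was not tested. With 1 sample left in a group, that sample is assumed to vary like the other genotype. Members near background were measured least precisely.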

Other observations

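A further set of 9 panel genes of ER glycoprotein processing and degradation, picked by name after the panel had been read, also showed no call: 0 of 9 with limma, 3 at an unadjusted p under 0.05, and 0 with edgeR under either set of factors. Over all tested genes 8.17% were called and 19.8% had an unadjusted p under 0.05. DERL1, a channel protein of ER-associated degradation, was at 641 ± 58.5 normalised counts in the knockout lines against 518 ± 35.2 in the others (SD, n = 2), a log2 change of 0.30 ± 0.10 (SE; limma adjusted p = 0.119). NGLY1, the cytosolic enzyme that strips glycans from degraded glycoproteins, had a log2 change of 0.27 ± 0.09 (SE; adjusted p = 0.103). OS9, a lectin that hands misfolded glycoproteins to degradation, was lower in both knockout lines, at -0.31 ± 0.11 (SE; adjusted p = 0.117). The median over the 9 genes was 0.01.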
